A study of Homo sapiens with 27 samples.

Results

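The experiment described here was the knockdown of CPSF1 in 22Rv1 cells, an established human prostate cancer cell line. It took 9 of the 27 libraries of the series, chosen by their labels alone, namely 3 of cells carrying a control hairpin (CTRL sh) and 3 each of cells carrying CPSF1 hairpin sh1 or sh2. All 9 cultures shared the same handling. The cells received their hairpin by lentivirus, passed 2 rounds of selection in puromycin at 2 µg/mL, were expanded, and were grown for 72 h in RPMI 1640 with 10% fetal bovine serum before total RNA was taken. The other libraries came from LNCaP and LNCaP95 cells and enter only a comparison of lines at the end. The sources do not say whether the 3 replicates of a group came from separate transductions, so the p-values measure only the spread between these libraries, which may be technical. The study asked how lowering CPSF1 changes the places at which transcripts end and which genes change with them.

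CPSF1 is the largest subunit of CPSF (cleavage and polyadenylation specificity factor), the complex that recognises the poly(A) signal near the end of a nascent transcript. Binding of this complex places the cut and the poly(A) tail, and the cut is also needed for RNA polymerase II to terminate downstream of the gene. Transcripts that are not cut at the annotated end can be cut further downstream, and poly(A) signals inside introns can be used in place of those at the gene end.

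Poly(A)-ClickSeq is made to read only the 3′ ends of polyadenylated RNA, so a read is taken to mark a place at which a transcript ended. Reads from internal poly(A) stretches of genomic sequence cannot be told from such ends in these counts. The deposited counts gave, for each protein-coding gene, the ends in its 3′ UTR (extended by 300 bases), in the 10 kb beyond that extension with exons of the same strand removed, in its introns and in its coding sequence (CDS). Unless stated otherwise, levels are given as CPM, reads per 1000000 reads of the same table after TMM scaling. Differences are log2 fold changes of the 6 CPSF1 libraries over the 3 CTRL sh libraries with their standard errors (SE), from edgeR's quasi-likelihood test, and a gene is called higher or lower at a Benjamini-Hochberg adjusted p below 0.05 over all genes tested in that table.

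The libraries held 3452413 to 12425417 reads, of which 170330 to 728430 lay in the 10 kb regions, where levels are therefore the least precise. CTRL sh 1 was the shallowest library, and it stood apart together with CPSF1 sh1 1. CDS reads were 17.9% and 18.6% of these 2 libraries and 13.96% to 15.82% of the other 7. The sums of marker lists in this paragraph are 3′ UTR CPM without TMM scaling. The 3′ UTR TMM factors were 0.902 to 1.004 in the CTRL sh and 0.945 to 1.059 in the CPSF1 libraries. Gaps between the groups in these sums are therefore not read as changes. Luminal prostate markers were all tested and summed to 3270 to 3406 CPM in the CTRL sh and 3633 to 4045 CPM in the CPSF1 libraries. Of these 10 markers, 1 was called higher and 0 lower. Basal markers KRT14 and KRT6A and the T cell marker CD3E were at 0 reads in all 9 libraries. The leukocyte list summed to at most 5.22 CPM, and the fibroblast and smooth muscle list to 8.41 to 19.2 CPM in the CTRL sh and 16.6 to 24.2 CPM in the CPSF1 libraries. The neuroendocrine list, with 4 of 8 markers tested, summed to 128 to 165 and 133 to 182 CPM, and the basal list, with 1 of 6 tested, to 68.7 to 82.3 and 67.0 to 88.8 CPM. In such bulk RNA, fewer cells of a kind and less RNA per cell cannot be told apart.

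CPSF1 itself (3′ UTR at chr8:145618150-145618532 of hg19, minus strand) was lower in every CPSF1 library than in every CTRL sh library. Its 3′ UTR level was 201, 133 and 145 CPM in CTRL sh, 102, 89.4 and 113 CPM with sh1, and 93.2, 84.4 and 90.2 CPM with sh2. The log2 fold change was -0.73 (SE 0.14, adjusted p = 0.0164). The call was lost without CTRL sh 3, CPSF1 sh2 2 or CPSF1 sh2 3 (adjusted p up to 0.0545). With sh1 alone the change was -0.63 (adjusted p = 0.409) and with sh2 alone -0.82 (adjusted p = 0.0277). The CPSF1 gene did not pass the test in its 10 kb region (log2 fold change 0.33, adjusted p = 0.645) or its introns (0.24, adjusted p = 0.661), and its CDS was below the filter, with 13 reads over the CPSF1 libraries.

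To determine which genes changed at their annotated ends, the 3′ UTR counts were compared first. Of 11501 genes tested, 78 were called higher (0.678%) and 91 lower (0.791%). The named genes with the largest rises included histone genes of the HIST2 cluster, the immune receptor gene LAG3 and the cell cycle inhibitor CDKN1A. Those with the largest falls included the mitochondrial gene NDUFA4L2, the lactate exporter SLC16A3, the secreted protease inhibitor SPINK1 and the steroid-metabolising enzyme AKR1C3. In 163 of these calls the sign was the same with each hairpin taken alone, and in none of the 3′ UTR calls were the signs opposite. Calls were made on both hairpins together against the same controls, which favours such agreement. Without both CTRL sh 1 and CPSF1 sh1 1 the counts were 358 and 418, and they held all 78 and all 91 of these genes.

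The counts depended on single libraries. They were 167 higher and 212 lower without CTRL sh 1, 35 and 42 without CTRL sh 2, and 27 and 25 without CTRL sh 3. Without CPSF1 sh1 1 the lower count was 160, and without CPSF1 sh1 3 the higher count was 51. They were 51 and 53 without CPSF1 sh2 1, 41 and 45 without CPSF1 sh2 2, and 41 and 42 without CPSF1 sh2 3. With sh1 alone only 2 genes were called higher and 1 lower in this table.

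LAG3, an inhibitory receptor best known from T cells, had the largest 3′ UTR rise of the genes that met the naming rule, with at least 10 CPM on average and no overlap between groups (chr12:6884741-6887919, plus strand). Its level was 10.3, 4.19 and 2.73 CPM in CTRL sh, 21.3, 20.8 and 26.2 CPM with sh1, and 22.2, 26.97 and 23.7 CPM with sh2, with no overlap between the groups. The log2 fold change was 2.30 (SE 0.30, adjusted p = 0.00133). The leukocyte markers measured beside it did not pass the filter on low values.

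Replication-dependent histone genes were the list with the largest share of higher calls. Their main mRNAs end in a stem-loop without a poly(A) tail, so a poly(A) assay sees only their polyadenylated forms. Of 71 listed genes 15 passed the filter, with a median log2 fold change of 1.11 against -0.01 over all genes tested. Of these, 7 were called higher (46.7%, against 0.678% of all genes) and 1 lower (6.67%, against 0.791%). HIST1H1C, a linker histone, stood at 10.9, 18.3 and 21.4 CPM in CTRL sh, 42.7, 49.5 and 52.8 CPM with sh1 and 88.1, 80.1 and 76.3 CPM with sh2 (1.87, SE 0.26, adjusted p = 0.00204). HIST2H2BE, an H2B gene, stood at 8.36, 12.3 and 11.8 CPM in CTRL sh, 22.5, 26.9 and 29.0 CPM with sh1 and 48.9, 36.0 and 42.0 CPM with sh2 (1.62, SE 0.26, adjusted p = 0.00454). In both genes the sh1 values lay between those of the controls and of sh2.

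HIST2H2AA4 and HIST2H2AA3 rose by 2.03 (SE 0.23) and 1.80 (SE 0.21) on the log2 scale, both at adjusted p = 5.33e-04, but they are near-identical copies between which the counting could split reads. The same holds for HIST2H4B (1.39, SE 0.22, adjusted p = 0.00445), whose call was lost without CTRL sh 3 (adjusted p = 0.0666). HIST2H2AC went the other way, from 42.8 to 59.2 CPM in CTRL sh to 18.1 to 22.0 CPM in the CPSF1 libraries (-1.28, SE 0.15, adjusted p = 5.33e-04). It lies beside HIST2H2BE on the opposite strand of chromosome 1.

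CDKN1A, which encodes the cyclin-dependent kinase inhibitor p21 and is a classic p53 target, rose at its 3′ UTR (chr6:36653578-36655416, plus strand). It stood at 26.4, 31.4 and 40.9 CPM in CTRL sh, 85.1, 70.3 and 81.6 CPM with sh1, and 105, 88.5 and 102 CPM with sh2 (1.40, SE 0.17, adjusted p = 8.45e-04). Of 27 p53 targets tested, 2 were called higher (7.41%, against 0.678% of all genes) and 1 lower (3.70%, against 0.791%). A log2 fold change above 0 was seen in 25, with a median of 0.32. PHLDA3, which restrains AKT signalling, rose from 22.0 to 32.8 CPM to 54.7 to 88.1 CPM (1.32, SE 0.20, adjusted p = 0.00311). CCNG1, which encodes cyclin G1, was the member called lower (-0.57, SE 0.13, adjusted p = 0.0334). That call was lost without any 1 library except CTRL sh 1 or CPSF1 sh1 1 (adjusted p up to 0.149).

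METTL12, a mitochondrial methyltransferase gene, rose from 5.99 to 9.65 CPM to 19.1 to 35.1 CPM (1.92, SE 0.24, adjusted p = 8.45e-04). The remaining named genes with a rise were at low levels. PPP1R3F, a regulatory subunit of protein phosphatase 1, rose by 1.35 (SE 0.25, adjusted p = 0.0117). REG4, a secreted lectin, rose by 1.66 (SE 0.33, adjusted p = 0.0167), CDKL3, a kinase, by 1.41 (SE 0.26, adjusted p = 0.0101), and ELAVL3, a neuronal RNA-binding protein, by 1.42 (SE 0.30, adjusted p = 0.0232). REG4 lost its call without CTRL sh 2 (adjusted p = 0.0968), and so did CDKL3 (adjusted p = 0.0741). ELAVL3 lost it without CTRL sh 2, CTRL sh 3 or CPSF1 sh2 3 (adjusted p up to 0.111).

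NDUFA4L2, a mitochondrial protein induced by HIF-1, had the deepest 3′ UTR fall by the same rule (chr12:57628386-57629456, minus strand). Its level was 18.7, 24.0 and 26.2 CPM in CTRL sh, 5.10, 3.18 and 8.24 CPM with sh1, and 1.596, 2.04 and 3.14 CPM with sh2 (-2.57, SE 0.36, adjusted p = 0.00201). SPINK1, a trypsin inhibitor secreted by a subset of prostate cancers, had higher levels (chr5:147203831-147207580, minus strand). It fell from 432, 330 and 415 CPM in CTRL sh to 170, 160 and 152 CPM with sh1 and 107, 119 and 99.5 CPM with sh2 (-1.54, SE 0.17, adjusted p = 5.33e-04). In both genes the groups did not overlap, which the naming rule required.

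Several other genes fell in all 6 CPSF1 libraries. AKR1C3, which makes androgens from weaker steroid precursors, went from 72.0 to 79.4 CPM in CTRL sh to 36.5 to 41.5 CPM with sh1 and 18.4 to 21.6 CPM with sh2 (-1.37, SE 0.22, adjusted p = 0.00467). NMB, a bombesin-like peptide, fell by 1.66 on the log2 scale (SE 0.26, adjusted p = 0.00423), from 53.4 to 67.7 CPM to 10.0 to 28.1 CPM. TOX3, a chromatin protein of the HMG-box family, fell by 1.40 (SE 0.19, adjusted p = 0.00162), and BEX1 by 1.22 (SE 0.15, adjusted p = 8.45e-04). TNNT1, a slow-muscle troponin, fell by 1.30 (SE 0.24, adjusted p = 0.0123) and DHRS2, a dehydrogenase, by 1.29 (SE 0.23, adjusted p = 0.00804), both calls being lost without CTRL sh 3 (adjusted p = 0.0799). TUBB2B, a beta-tubulin, fell by 1.22 (SE 0.22, adjusted p = 0.0103), a call lost without CTRL sh 2 or CTRL sh 3 (adjusted p up to 0.0877).

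**Figure D1:**
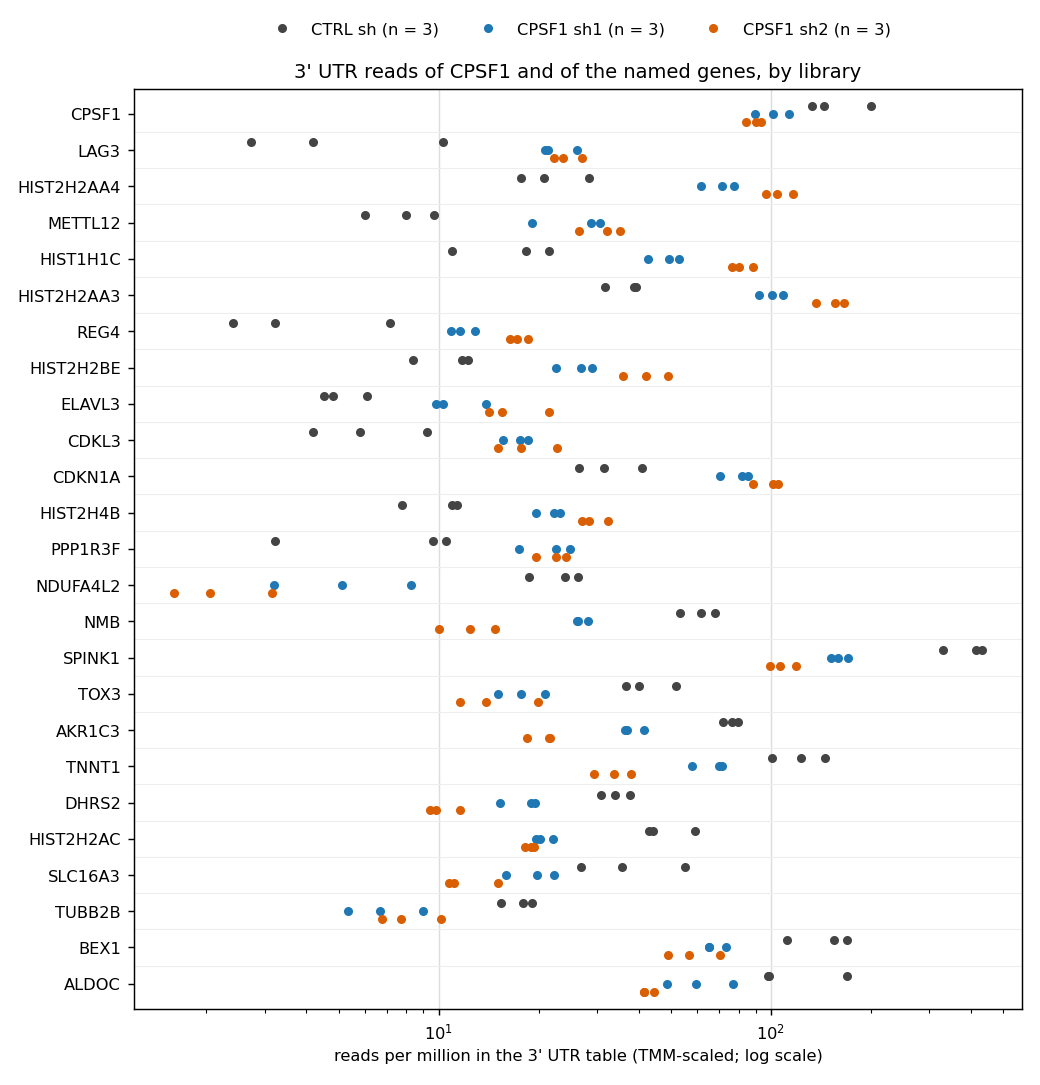
Level in the 3′ UTR table (CPM, log axis) of CPSF1 and of the named genes with the largest rises and falls, 1 point per library, coloured by CTRL sh, CPSF1 sh1 and CPSF1 sh2. In LAG3 the 6 CPSF1 points sit between 20.8 and 26.97 CPM above controls of 2.73 to 10.3 CPM, and in NDUFA4L2 they sit between 1.596 and 8.24 CPM below controls of 18.7 to 26.2 CPM.

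Of 19 tested targets of hypoxia-inducible factor, 5 were called lower at the 3′ UTR (26.3%, against 0.791% of all genes) and 18 had a log2 fold change below 0, with a median of -0.44 against -0.01 over all genes. These members were PGK1, BNIP3L, PDK1, P4HA1 and BNIP3. PGK1, the first ATP-making enzyme of glycolysis, stood at 633 to 722 CPM in CTRL sh and 437 to 473 CPM in the CPSF1 libraries (-0.60, SE 0.10, adjusted p = 0.00501). BNIP3, a mitophagy receptor, was at the threshold (-0.93, SE 0.22, adjusted p = 0.0497), and its call was lost without CTRL sh 2, CTRL sh 3, CPSF1 sh1 2 or any 1 sh2 library (up to 0.328). The count of 5 fell to 1 without CTRL sh 2, CPSF1 sh2 1 or CPSF1 sh2 3, to 2 without CTRL sh 3 or CPSF1 sh1 2, and to 3 without CPSF1 sh1 3 or CPSF1 sh2 2. Beside these, SLC16A3, the lactate exporter MCT4, fell by 1.27 (SE 0.25, adjusted p = 0.0177), a call lost without CTRL sh 2 or CPSF1 sh2 2 (adjusted p up to 0.0712), and ALDOC, an aldolase, by 1.21 (SE 0.21, adjusted p = 0.00737). Of 18 glycolysis genes, PGK1 and ALDOC were called lower.

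All 25 listed cholesterol synthesis genes passed the filter, all 25 had a log2 fold change below 0 (median -0.45), and 4 were called lower (16.0%, against 0.791% of all genes), namely FDFT1, IDI1, HMGCS1 and INSIG1. FDFT1, squalene synthase, stood at 437, 440 and 608 CPM in CTRL sh and at 265 to 338 CPM in the CPSF1 libraries (-0.76, SE 0.13, adjusted p = 0.00636), a call lost without CTRL sh 3 (adjusted p = 0.0757). IDI1, isopentenyl-diphosphate isomerase, fell by 0.69 (SE 0.13, adjusted p = 0.0153), a call lost without CTRL sh 2 or CTRL sh 3 (adjusted p up to 0.104). The count was 8 without CTRL sh 1, 2 without CPSF1 sh2 2, and no member was called by edgeR without CTRL sh 3. Leaving out CTRL sh 1 and CPSF1 sh1 1 together raised it to 12. SCD, the desaturase of fatty acid synthesis, fell from 704, 806 and 749 CPM to 446, 494 and 462 CPM with sh1 and 333, 327 and 351 CPM with sh2 (-0.91, SE 0.14, adjusted p = 0.00334). It was the called member of 17 tested fatty acid synthesis genes.

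Of 84 cytoplasmic ribosomal protein genes 78 had a log2 fold change below 0 (median -0.16). Called lower were 3 (RPL34, RPS23 and RPS29), or 3.57% against 0.791% of all genes. In the androgen response list 1 of 34 tested genes was called, ELL2, an elongation factor (-0.52, SE 0.11, adjusted p = 0.0244), a call lost without CTRL sh 2, CTRL sh 3, CPSF1 sh1 3, CPSF1 sh2 2 or CPSF1 sh2 3 (adjusted p up to 0.123). In the integrated stress response 1 of 27 members (CHAC1, 3.70%) was called lower and 22 were below 0. Of 24 cleavage and polyadenylation factors, CPSF1 was the called one (4.17%).

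To determine which genes had more or fewer reads beyond the gene, the reads of the 10 kb region were compared. Of 14372 genes tested, 1042 were called higher (7.25%) and 398 lower (2.77%). The higher calls were large, with a median log2 fold change of 2.06, and 960 of them were above 2-fold. They included IGFBP3, CDKN1A, heat shock proteins, translation factors and many ribosomal protein genes. The lower calls were smaller in the median (-0.87) but reached -5.59, and the named falls included CACNB4, ANGPTL4, HAVCR1 and KLK12. The higher and lower calls were not matched for level, with median CTRL sh levels of 14.03 and 273 CPM. From few control reads only a large rise can be called, so the sizes of rises and falls cannot be compared. The signs agreed between the hairpins in all 1440 calls, which had been chosen on both hairpins together against the same controls. Without CTRL sh 3 the counts were 598 and 201, and without both CTRL sh 1 and CPSF1 sh1 1 they were 999 and 608.

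The split between higher and lower depended on the scaling, because the 10 kb regions took 4.46% to 4.93% of all reads in CTRL sh and 5.51% to 6.30% in the CPSF1 libraries. With TMM scaling within the table the median log2 fold change over all genes was 0.19. With library sizes summed over the 4 tables it was 0.73, a shift of 0.54, and the counts were 2700 higher, among them all 1042, and 57 lower. A difference in this table is therefore given beside the all-gene median, and a fall is relative to the other genes of the table.

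The 12 named genes with the largest rises had no read in any CTRL sh library, so only a lower bound on each fold can be given, set at 3 reads over the 3 controls. IGFBP3, which binds insulin-like growth factors and limits their action, was at least 29.99-fold higher in its 10 kb region (chr7:45941650-45951649, minus strand). It held 18, 16 and 39 reads with sh1 and 164, 130 and 104 reads with sh2, or 33.3 to 54.9 CPM against 157 to 216 CPM (adjusted p = 4.22e-12). At its 3′ UTR the hairpins also differed in level, with 88.2 to 122 CPM in CTRL sh, 83.0 to 93.8 CPM with sh1 and 187 to 203 CPM with sh2, and the change over both did not pass the test (0.35, SE 0.28, adjusted p = 0.637).

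CDKN1A was at least 8.21-fold higher in its 10 kb region (chr6:36655416-36665415, plus strand), with 14, 10 and 19 reads with sh1 and 36, 26 and 24 reads with sh2 (adjusted p = 1.33e-05). SCG3, a granin of secretory granules, was at least 16.1-fold higher, MSH4, a meiotic mismatch repair protein, at least 9.42-fold, and POLR1D, a subunit shared by RNA polymerases I and III, at least 8.98-fold. TFRC, the transferrin receptor, was at least 8.72-fold higher, RPS24 at least 7.45-fold and HIST2H2BE at least 6.37-fold. SMIM19, the GTPase gene RHOU, NCSTN of gamma-secretase and the nucleic acid sensor ZBP1 had bounds of 8.79, 8.28, 7.07 and 7.004. Each of these 12 had reads in all 6 CPSF1 libraries, which the naming rule required.

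The last bases of some annotated genes are shown because a poly(A) signal of the annotated end would lie there. Whether transcripts were cut at these ends was not tested. The lines below give 30 bases each, in lower case and 5′ to 3′ on the gene's strand, from the GRCh37 genome, with AATAAA or ATTAAA, the canonical poly(A) signal and its commonest variant, in capitals wherever these bases held them. Each line was placed around the last such signal in the final 50 bases of the gene, or at the gene's end where there was none. The latter was so for TFRC, HAVCR1, NDUFA4L2 and MEIG1. They were chosen as genes the results turn on, with the first 7 higher and the last 4 lower in the 10 kb region.
IGFBP3 (chr7:45951949-45951978, minus strand): gtaAATAAAgtttttaccATTAAAaaaata
CDKN1A (chr6:36655080-36655109, plus strand): gtgctcAATAAAtgattcttagtgacttta
SCG3 (chr15:52013194-52013223, plus strand): gctcttcatAATAAAccttgctactgttca
EEF1A1 (chr6:74225473-74225502, minus strand): tcactacAATAAAtgaattttaagctttaa
HSP90B1 (chr12:104347391-104347420, plus strand): aatgttAATAAAgcacactgctttcaacac
PMEPA1 (chr20:56223452-56223481, minus strand): ttatacAATAAAttttacaattctttggaa
TFRC (chr3:195754054-195754083, minus strand): cactttttgtctccgctgctctctctccat
ANGPTL4 (chr19:8439228-8439257, plus strand): tcttggAATAAAagcaacctcagaacactt
HAVCR1 (chr5:156456424-156456453, minus strand): ccccataaatcctgtatacatcaaagagaa
NDUFA4L2 (chr12:57628686-57628715, minus strand): gcaaaatacaatttcatttaacaaattgaa
MEIG1 (chr10:15030020-15030049, plus strand): tcttcataaaagtacatgcacacttaaaaa

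Most genes with more downstream reads ended in a canonical signal. Among genes whose 10 kb region was not trimmed, AATAAA was in the last 50 bases of 62.5% of 939 higher genes, 43.5% of 283 lower genes and 57.4% of all 11356. ATTAAA was in 21.0%, 13.8% and 17.3% of them (a gene can hold both), and neither was in 22.5%, 44.9% and 29.1%. Lower genes also differed in what lay downstream. Another gene of the same strand overlapped the 10 kb region in 61.1% of lower, 28.7% of higher and 38.7% of all tested genes. The regions of NCSTN, SMIM19 and ZBP1 were among these. A newer annotation of the same gene (GENCODE v44 mapped to GRCh37, matched for 90.1% of genes) reached into it in 31.2%, 12.2% and 13.1%. Such genes included TFRC, POLR1D, SMIM19, EEF1A1, RPL15, MYC, PSMC2, CAMK2D and ALDH3A2. Their reads in this region may lie within the newer model of the same gene. The median CTRL sh level in the region was 273 CPM for lower, 14.03 CPM for higher and 12.7 CPM for all genes, and the median GC content was 45.9%, 43.2% and 45.1%. At the 3′ UTR, for genes also tested there, the median CTRL sh level was 28.65 CPM for lower, 53.19 CPM for higher and 27.02 CPM for all genes. The gene lists below were not matched for level. These features are descriptions, and their part in the calls was not tested.

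**Figure D2:**
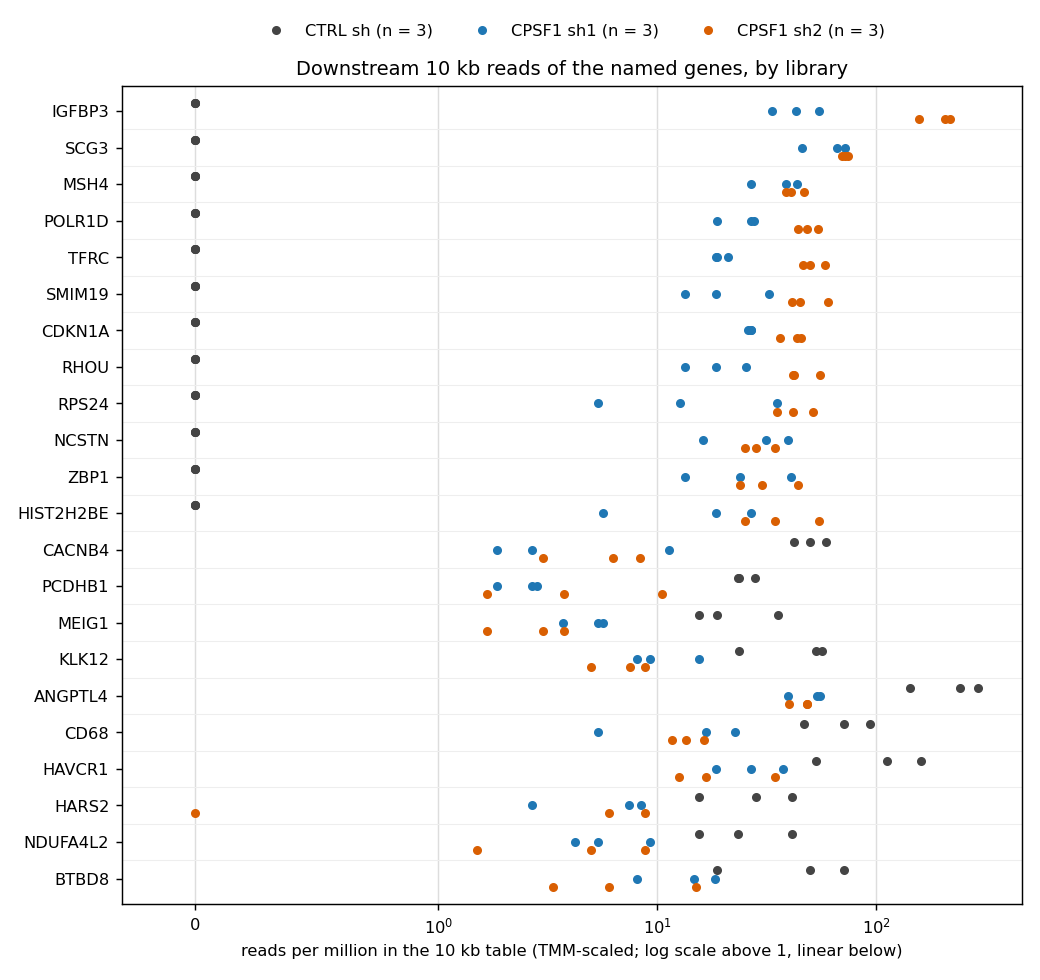
Level in the 10 kb table (CPM, linear below 1 and log above) of the named genes with the largest rises and falls, 1 point per library, coloured by group. The controls of the 12 genes with the largest rises all sit at 0, and the ANGPTL4 controls of 142 to 291 CPM sit above 39.4 to 55.4 CPM.

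Of 76 tested cytoplasmic ribosomal protein genes 25 were called higher (32.9%, against 7.25% of all genes) and 1 lower (1.32%, against 2.77%). Shares of the lists that follow stand beside the same 7.25% and 2.77%. The filter on the mean admits genes with almost no control reads through their CPSF1 libraries. Requiring over 2 CPM in every library lowered the higher count over all genes too, as the closing section gives. The higher counts were then 14 ribosomal protein genes, 6 translation factors, 2 chaperones and 3 androgen response genes. They were 4 for oxidative phosphorylation and 1 each for the unfolded protein response and the proteasome. The median log2 fold change of the ribosomal protein genes was 1.01, which is 0.82 above that of all genes. With summed library sizes 38 were higher and the median was 0.81 above that of all genes. RPL37, of the large subunit, stood at 23.7, 9.38 and 52.8 CPM in CTRL sh, 264, 306 and 283 CPM with sh1 and 465, 344 and 350 CPM with sh2 (3.40, SE 0.31, adjusted p = 2.25e-17). RPL15 rose by 3.04 (SE 0.35, adjusted p = 2.35e-12) and RPS15A by 2.47 (SE 0.32, adjusted p = 8.28e-10). RPL5, which carries the 5S rRNA, had 3 reads over the controls and 675 over the CPSF1 libraries, a ratio of 43.0 with a 95% counting interval of 14.6 to 209.

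Of 37 tested translation factors 10 were called higher and 2 lower. EEF1A1, the elongation factor that delivers tRNAs to the ribosome, stood at 35.5, 70.3 and 21.8 CPM in CTRL sh, 390, 535 and 439 CPM with sh1 and 765, 699 and 719 CPM with sh2 (3.86, SE 0.29, adjusted p = 8.24e-23). EIF4G2 rose by 3.60 (SE 0.42, adjusted p = 4.22e-12) and EIF4H, a helper of the eIF4A helicase, by 2.40 (SE 0.25, adjusted p = 1.72e-14). In the mitochondrial ribosome 6 of 66 genes were higher (9.09%, and 16 genes with summed library sizes) and 1 lower (1.52%). These shares were near those of all genes, and the median was only 0.02 above that of all genes. Of 18 aminoacyl-tRNA synthetases 5 were higher (27.8%), but the count was 2 without any 1 control and 3 without CPSF1 sh1 2, CPSF1 sh2 2 or CPSF1 sh2 3.

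The p53 targets had the largest share of higher calls of any list in this table under the filter on the mean. Of 26 tested, 12 were called higher (46.2%) and 24 had a log2 fold change above 0. Requiring over 2 CPM in every library, which drops genes such as CDKN1A with no control read, left 6 called higher. The median was 1.42, which is 1.23 above that of all genes and 1.24 above it with summed sizes. Beside CDKN1A these included BTG2, an antiproliferative gene with 3 reads over the controls and 388 over the CPSF1 libraries (ratio 24.7, 95% counting interval 8.39 to 120). EDA2R, a receptor of the TNF receptor family, rose from 31.1 to 41.4 CPM to 121 to 251 CPM (2.46, SE 0.32, adjusted p = 9.03e-10). CCNG1 rose from 331 to 591 CPM to 1038 to 1640.1 CPM (1.40, SE 0.19, adjusted p = 2.70e-09), against its fall at the 3′ UTR given above. PHLDA3 rose by 1.94 (SE 0.33, adjusted p = 3.09e-06).

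Of 25 chaperones and heat shock proteins 6 were called higher (24.0%), with a median 1.09 above that of all genes, and 3 without CPSF1 sh2 2 or CPSF1 sh2 3. HSPA8, the constitutive HSP70, rose from 4.69 to 18.6 CPM to 88.7 to 184 CPM (3.60, SE 0.44, adjusted p = 4.53e-11). CCT8, of the TRiC chaperonin, rose by 2.66 (SE 0.49, adjusted p = 1.70e-05). In the unfolded protein response 4 of 20 genes were higher (2 without CTRL sh 1). HSP90B1, the GRP94 chaperone, stood at 0, 18.8 and 18.6 CPM in CTRL sh, 266, 331 and 248 CPM with sh1 and 415, 396 and 435 CPM with sh2 (4.61, SE 0.37, adjusted p = 1.49e-21).

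In the androgen response 6 of 32 genes were called higher (18.8%, and 12 genes with summed library sizes) and 2 lower (6.25%), with a median 0.33 above that of all genes. PMEPA1, an androgen-induced inhibitor of TGF-beta signalling, stood at 0, 9.38 and 15.5 CPM in CTRL sh, 205, 202 and 190 CPM with sh1, and 239, 279 and 237 CPM with sh2 (4.49, SE 0.41, adjusted p = 8.49e-18). FKBP5, an HSP90 co-chaperone, rose by 1.03 (SE 0.20, adjusted p = 3.37e-05). ZBTB16, a zinc finger repressor, fell from 1213 to 1416 CPM to 707 to 852 CPM (-0.78, SE 0.17, adjusted p = 2.61e-04), a call lost with summed library sizes. Its region overlaps NNMT on the same strand, and newer models of ZBTB16 reach into it. PMEPA1, FKBP5 and ZBTB16 had no call at the 3′ UTR, where ELL2 was the called member of the list.

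Of 27 hnRNP genes 9 were called higher (33.3%), among them HNRNPDL (2.94, SE 0.39, adjusted p = 8.94e-10) and HNRNPA1 (2.27, SE 0.38, adjusted p = 1.44e-06). Of 15 SR splicing factors 4 were higher (26.7%) and SRSF1 was lower (6.67%). SRSF1 went from 172 to 366 CPM to 46.2 to 176 CPM (-1.12, SE 0.23, adjusted p = 1.68e-04), a call lost with summed library sizes. Its region overlaps other genes of the same strand, and newer models of SRSF1 reach into it. Of 22 cleavage and polyadenylation factors 2 were higher (9.09%), a share near the 7.25% of all genes. CSTF3, the CstF subunit that bridges to CPSF, had 2 reads over the controls and 332 over the CPSF1 libraries (ratio 31.7, 95% counting interval 8.71 to 263), and CSTF2T rose by 1.58, a call lost without CTRL sh 2 (adjusted p = 0.0791). Integrator had 3 of 13 subunits higher (23.1%) and 2 lower (15.4%), with INTS6 at 1.95 (SE 0.30, adjusted p = 2.12e-07). Transcription elongation and termination factors had 4 of 27 higher (14.8%, and 2 genes without CTRL sh 2 or CTRL sh 3) and 1 lower (3.70%), with a median 0.08 below that of all genes.

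Histone genes had 10 of 55 called higher (18.2%) and 2 lower (3.64%) in the 10 kb table (6 higher without CTRL sh 3). HIST2H2BF had 2 reads over the controls and 203 over the CPSF1 libraries (ratio 19.4, 95% counting interval 5.30 to 161). HIST1H2BF fell from 2234 to 2444 CPM to 978 to 1616 CPM (-0.83, SE 0.16, adjusted p = 5.53e-05), a call lost with summed library sizes. Its region overlaps H4C5 and other genes of the same strand. Immediate early genes had 4 of 22 higher (18.2%, and 2 genes without CTRL sh 3), among them MYC, which rose from 0 to 14.1 CPM to 40.8 to 145 CPM (3.97, SE 0.56, adjusted p = 1.26e-08). The integrated stress response had 6 of 27 higher (22.2%) and 2 lower (7.41%), with a median 0.88 above that of all genes. PSAT1, of serine synthesis, rose by 1.53 (SE 0.30, adjusted p = 6.65e-05) and ATF5 by 1.53 (SE 0.34, adjusted p = 4.01e-04). The count was 3 without CTRL sh 2, CPSF1 sh2 1 or CPSF1 sh2 2 and 2 without CTRL sh 3. Proteasome subunits had 5 of 31 higher (16.1%), among them PSMC2 of the 19S cap (0, 23.4 and 6.22 CPM in CTRL sh, 158 to 306 CPM in the CPSF1 libraries, 4.54, SE 0.41, adjusted p = 1.01e-17). That count was 2 without CTRL sh 1, CTRL sh 3 or CPSF1 sh2 2 and 3 without any other 1 library except CPSF1 sh1 1 or CPSF1 sh1 3.

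Metabolic lists held calls in both directions. Glycolysis had 4 of 18 genes higher (22.2%, against 7.25% of all genes) and 3 lower (16.7%, against 2.77%), and 8 higher with summed library sizes, with LDHB, a lactate dehydrogenase, at 2.57 (SE 0.36, adjusted p = 1.15e-08) and HK1, a hexokinase, at 2.09 (SE 0.34, adjusted p = 9.40e-07). The tricarboxylic acid cycle had 3 of 22 higher (13.6%) and 1 lower (4.55%), with DLAT of pyruvate dehydrogenase at 3.17 (SE 0.58, adjusted p = 1.16e-05). Oxidative phosphorylation had 7 of 67 higher (10.4%, and 18 genes with summed sizes) and 2 lower, with COX7C of complex IV at 3.26 (SE 0.46, adjusted p = 1.15e-08). Fatty acid synthesis had 3 of 16 higher (18.8%) and 1 lower, and ACACA, acetyl-CoA carboxylase, rose from 98.5 to 112 CPM to 397 to 579 CPM (2.22, SE 0.24, adjusted p = 1.97e-13). Cholesterol synthesis had 1 of 20 in each direction (5.0%), with FDFT1 lower here too (-1.04, SE 0.21, adjusted p = 8.16e-05), a call lost with summed library sizes. The hypoxia list had 1 of 20 higher (5.0%) and 3 lower (15.0%), with BNIP3 at -1.26 (SE 0.20, adjusted p = 3.63e-07) and P4HA1, a collagen hydroxylase, at -0.78 (SE 0.15, adjusted p = 4.05e-05), the latter a call lost with summed sizes.

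The remaining lists were as follows. DNA replication had 3 of 34 higher (8.82%) and 1 lower, and mitosis had 3 of 33 (9.09%) and 2, shares near the 7.25% of all genes called higher, with the spindle motor KIF11 at 1.75 (SE 0.25, adjusted p = 2.29e-08). Interferon-stimulated genes had 3 of 22 higher (13.6%, and 1 gene without CTRL sh 2), and lysosome and autophagy genes 2 of 30 (6.67%). Over all lists, counts of 1 to 3 members in this table lost up to 3 and gained up to 4 members when 1 library was left out. Numbered zinc finger genes had 25 of 435 higher (5.75%) and 14 lower (3.22%), with a median 0.08 below that of all genes, and 80 higher and 1 lower with summed library sizes. For them the higher count was 14 without CTRL sh 3, and the lower count was 22 without CTRL sh 1, 6 without CTRL sh 2, 5 without CTRL sh 3 and 8 without CPSF1 sh2 3.

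**Figure D3:**
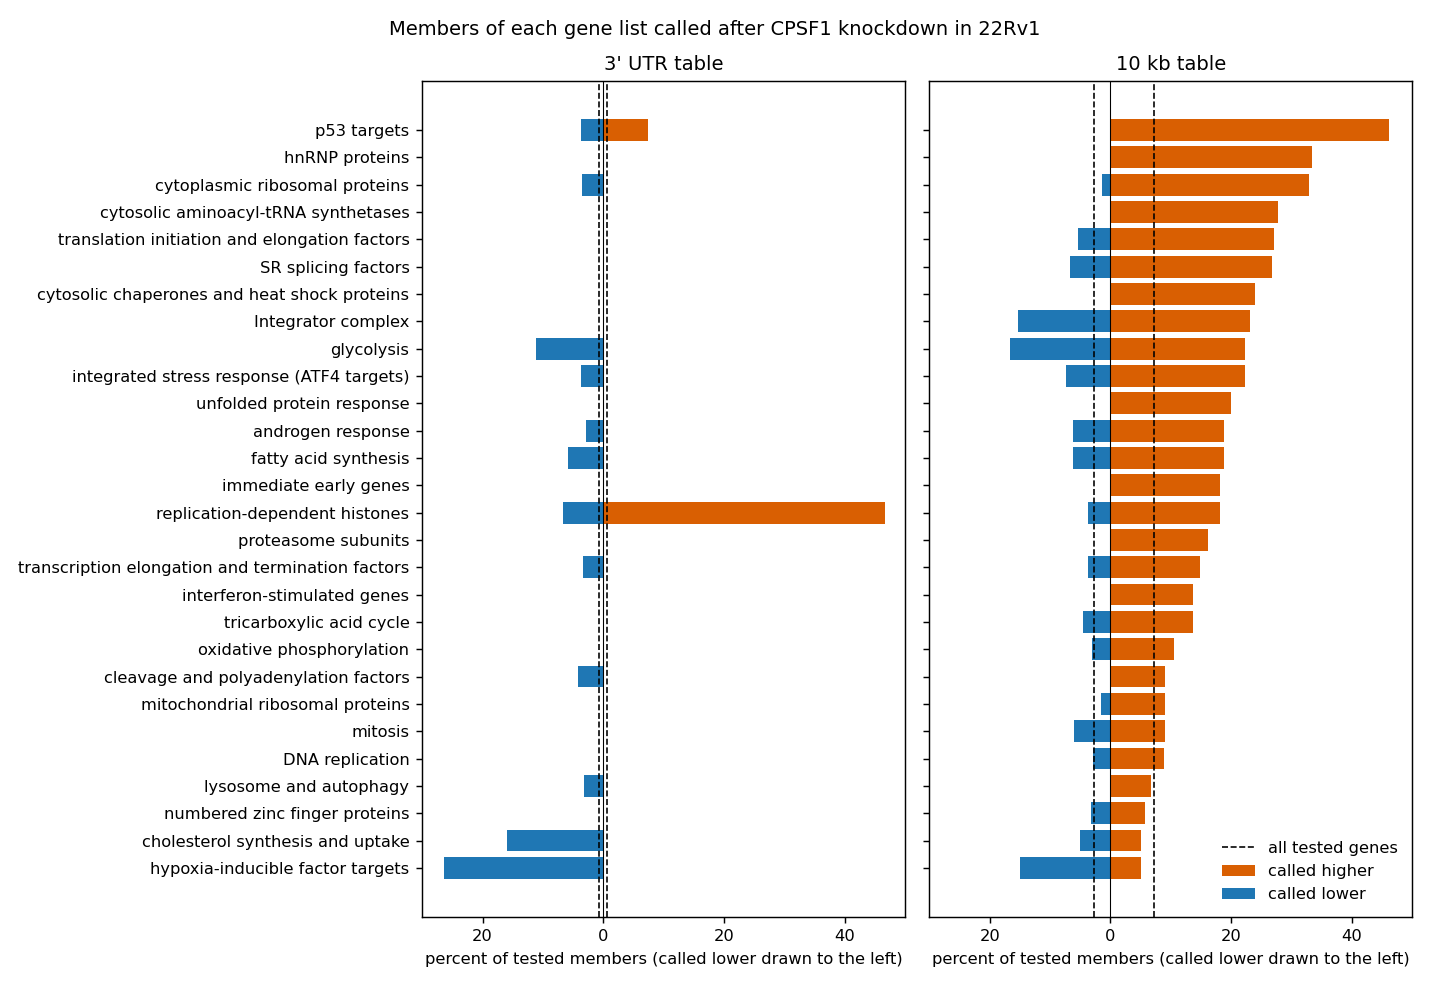
Share of tested members called higher (right) and lower (left) for each gene list in the 3′ UTR and 10 kb tables, with the share over all tested genes as dashed lines. In the 10 kb regions 12 of 26 p53 targets and 25 of 76 cytoplasmic ribosomal protein genes were called higher, against 7.25% of all genes, and at the 3′ UTR 7 of 15 histone genes were, against 0.678%.

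Genes with fewer reads downstream were described next. CACNB4, a calcium channel subunit, stood at 59.2, 42.2 and 49.7 CPM in CTRL sh, 1.85, 2.69 and 11.3 CPM with sh1, and 6.27, 8.32 and 3.01 CPM with sh2 (-3.04, SE 0.56, adjusted p = 1.53e-05). Its region is shared with another gene of the same strand. ANGPTL4, a secreted inhibitor of lipoprotein lipase, stood at 142, 291 and 242 CPM in CTRL sh, 55.4, 53.8 and 39.4 CPM with sh1, and 40.1, 48.2 and 48.2 CPM with sh2 (-2.27, SE 0.26, adjusted p = 2.63e-12), while its 3′ UTR gave -0.28 (adjusted p = 0.606). No other annotated gene of its strand lies in that region.

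HAVCR1, the kidney injury molecule, fell from 53.3 to 159 CPM to 12.5 to 37.6 CPM (-2.20, SE 0.35, adjusted p = 7.04e-07), in a region that newer models of the gene reach into. KLK12, a kallikrein, fell by 2.28 (SE 0.52, adjusted p = 8.53e-04), in a region that overlaps KLK10 and KLK11 on the same strand. CD68, a macrophage marker, fell by 2.25 (SE 0.42, adjusted p = 2.44e-05), but its region (chr17:7485729-7495728) lies over MPDU1, whose introns also fell. These neighbours mean that such reads cannot be assigned to 1 gene.

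The other named falls rested on few reads. PCDHB1 fell by 2.58 (SE 0.72, adjusted p = 0.00857, lost without CTRL sh 3 at 0.0855) and MEIG1 by 2.48 (SE 0.76, adjusted p = 0.0207, lost without CTRL sh 1 at 0.127). HARS2 fell by 2.17 (SE 0.68, adjusted p = 0.0240), lost without CTRL sh 1, CTRL sh 2 or CPSF1 sh2 2 (up to 0.137). NDUFA4L2 fell by 2.12 (SE 0.69, adjusted p = 0.0307), lost without CTRL sh 1, CTRL sh 2, CPSF1 sh1 3 or CPSF1 sh2 3 (up to 0.183). BTBD8 fell by 2.01 (SE 0.52, adjusted p = 0.00372), lost without CTRL sh 1 or CTRL sh 3 (up to 0.0564). With summed library sizes all 10 named falls stayed below 0, and MEIG1, HARS2 and NDUFA4L2 lost their calls.

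Few genes of any kind were called at the 3′ UTR, so changes downstream went mostly without a call there. Of 10088 genes tested in both tables, 967 were higher in the 10 kb region, and of these 20 were also higher at the 3′ UTR, 13 were lower and 934 were not called. Of the 275 lower in the 10 kb region, 1 was higher at the 3′ UTR and 12 were lower. Beside these, of the 8846 not called downstream, 45 were higher at the 3′ UTR and 62 were lower. The median log2 fold change at the 3′ UTR was 0.02 for the higher, -0.07 for the lower and -0.01 for the 8846 not called downstream.

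The genes that went opposite ways were few, and of the 8 named only CAMK2D and ALDH3A2 kept both calls when any 1 library was left out. Newer models of CAMK2D, ALDH3A2 and BTG1 reach into their 10 kb regions, so their downstream reads may lie within the same gene. SPINK1 rose in its 10 kb region from 29.6, 18.8 and 6.22 CPM to 45.1 to 75.3 CPM (1.84, SE 0.48, adjusted p = 0.00420) while it fell at its 3′ UTR, although the downstream call was lost without CTRL sh 3 (adjusted p = 0.139). CAMK2D, a calmodulin-dependent kinase, rose downstream from 37.3 to 75.01 CPM to 175 to 277 CPM (1.86, SE 0.29, adjusted p = 2.75e-07) and fell at the 3′ UTR from 38.6 to 47.5 CPM to 16.8 to 24.8 CPM (-1.10, SE 0.16, adjusted p = 0.00204). ALDH3A2, which oxidises fatty aldehydes, rose downstream by 1.31 (SE 0.18, adjusted p = 2.00e-09) and fell at the 3′ UTR by 0.83 (SE 0.13, adjusted p = 0.00311). BTG1 fell at the 3′ UTR by 0.72 (SE 0.11, adjusted p = 0.00302) and rose downstream by 2.02 (SE 0.66, adjusted p = 0.0320), the latter lost without CTRL sh 2, CTRL sh 3, CPSF1 sh1 3, CPSF1 sh2 1 or CPSF1 sh2 2 (up to 0.252).

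RPS23 rose downstream from 37.3 to 56.3 CPM to 124 to 238 CPM (1.93, SE 0.31, adjusted p = 6.09e-07), with 3′ UTR levels of 2487 to 2607 CPM in CTRL sh and 1819 to 1958 CPM in the CPSF1 libraries (-0.42, SE 0.09, adjusted p = 0.0244). The 3′ UTR call was lost without any 1 library except CTRL sh 1 or CPSF1 sh1 1 (up to 0.0988). GADD45G, a stress-induced growth arrest gene, rose downstream by 3.06 (SE 0.53, adjusted p = 3.09e-06) and fell at the 3′ UTR by 0.88 (adjusted p = 0.0236), the latter lost without CTRL sh 3 or any 1 sh2 library (up to 0.134). HEBP2 had 2 control reads downstream against 120 (ratio 11.5, 95% counting interval 3.10 to 95.7) and a 3′ UTR change of -0.55 (adjusted p = 0.0187), lost without CTRL sh 2, CTRL sh 3 or any 1 sh2 library (up to 0.0877). For SUDS3 the values were 3.18 downstream (adjusted p = 0.0489) and -0.65 at the 3′ UTR (adjusted p = 0.0136). The former was lost without CTRL sh 1, CTRL sh 3, CPSF1 sh1 2, CPSF1 sh1 3, CPSF1 sh2 2 or CPSF1 sh2 3 (up to 0.266) and the latter without CTRL sh 2 or CTRL sh 3 (up to 0.116).

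**Figure D4:**
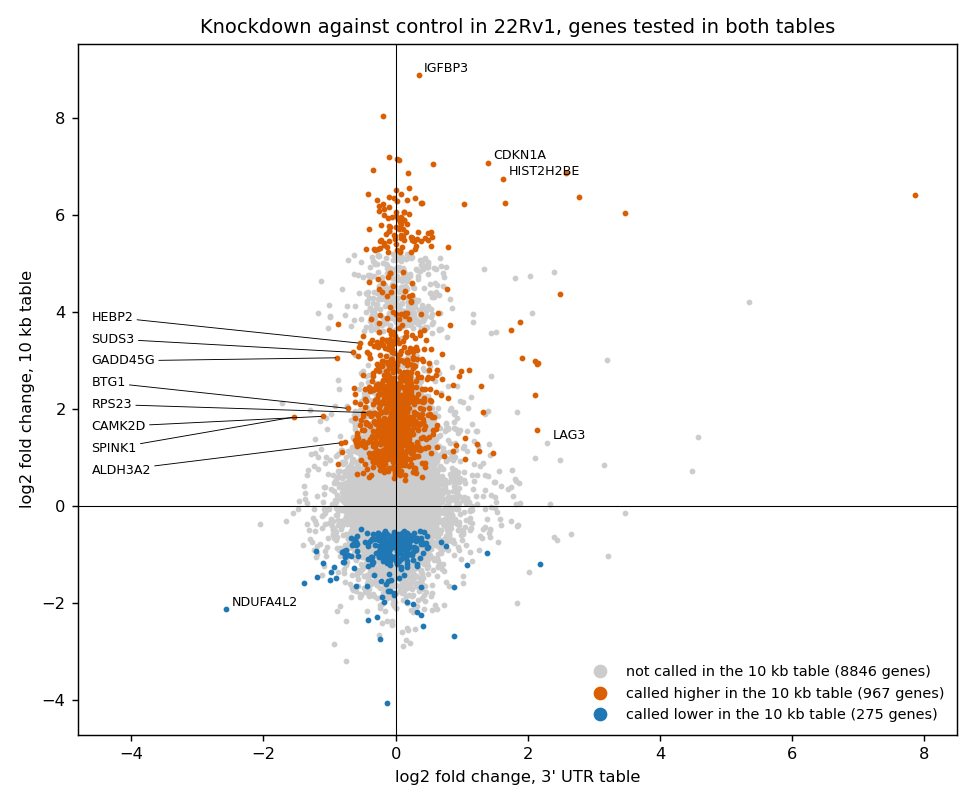
Log2 fold change in the 10 kb table (vertical axis) against that in the 3′ UTR table (horizontal axis) for the 10088 genes tested in both, coloured by the 10 kb call. The 967 genes higher downstream lie above 0 over a narrow range of 3′ UTR changes with a median of 0.02, and SPINK1 and CAMK2D lie to the left, at -1.54 and -1.10.

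Reads of the 10 kb region were also set against 3′ UTR reads of each gene, in 1 model over both regions of each library. Of 10088 genes, 667 had a higher downstream ratio (6.61%) and 82 a lower one (0.813%). The ratio rose by 4.84 for HSP90B1 (SE 0.44, adjusted p = 1.23e-08), by 4.25 for EEF1A1 (SE 0.37, adjusted p = 7.31e-09) and by 3.44 for SPINK1 (SE 0.47, adjusted p = 1.17e-05). Of the 8 named genes with the largest rise, 7 are given above with their bounds (IGFBP3, SCG3, POLR1D, RPS24, TFRC, SMIM19 and NCSTN). The remaining gene, ARHGEF12, had no control read downstream and 73 reads in the CPSF1 libraries, and its ratio call was lost without CTRL sh 3 (adjusted p = 0.0703).

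The ratio fell for ANGPTL4 by 2.02 (SE 0.37, adjusted p = 5.52e-04) and for CDKL3 by 2.01 (SE 0.36, adjusted p = 4.97e-04), the latter with a rise at the 3′ UTR and a downstream change of -0.54 (adjusted p = 0.149). HARS2 fell by 2.45 (adjusted p = 0.0250, lost without CTRL sh 1 or CTRL sh 2 at up to 0.0993), and ISYNA1 by 3.52 (adjusted p = 0.0143), with 19 of its 20 control reads in CTRL sh 1. The higher count was 393 without CTRL sh 2 and 296 without CTRL sh 3. The lower count was 156 without CTRL sh 1, 43 without CTRL sh 2, 27 without CTRL sh 3, 54 without CPSF1 sh1 3, and 53, 48 and 40 without CPSF1 sh2 1, 2 and 3.

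To determine which genes had more or fewer reads inside the gene, the intron reads were compared. Of 12319 genes tested, 323 were called higher (2.62%) and 215 lower (1.75%). Log2 fold changes of the called genes ran from -3.42 to 6.74. By the naming rule, the largest rises included MGAM, ZBP1, the mucin gene MUC20, the transporter gene SLC28A1 and the meiotic gene MSH4. The deepest falls by that rule included the ion channel gene KCNU1, SLC16A3, the homeobox gene IRX3 and TPT1. Summed library sizes gave 420 higher and 20 lower and shifted the all-gene median by 0.20. Without CTRL sh 3 the counts were 170 and 92. The lower count was 330 without CTRL sh 1, 119 without CTRL sh 2, 140 without CPSF1 sh2 1 and 132 without CPSF1 sh2 3, and 407 without both CTRL sh 1 and CPSF1 sh1 1.

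MGAM, the maltase-glucoamylase of the gut brush border, stood at 0, 2.69 and 2.23 CPM in CTRL sh, 27.3, 33.8 and 30.3 CPM with sh1, and 67.6, 70.9 and 63.7 CPM with sh2 (4.74, SE 0.53, adjusted p = 2.69e-06). MSH4 stood at 13.2, 13.5 and 7.24 CPM in CTRL sh, 139, 112 and 113 CPM with sh1, and 171, 169 and 143 CPM with sh2 (3.72, SE 0.23, adjusted p = 1.87e-10). SLC28A1, a nucleoside transporter, rose by 3.99 (SE 0.35, adjusted p = 7.64e-08) and FAM179A by 4.07 (SE 0.44, adjusted p = 1.87e-06). ZBP1 and MUC20 had 3 control reads each, with ratios of 26.3 (95% counting interval 8.94 to 128) and 24.0 (8.14 to 117). MSH4 and ZBP1 were also among the named rises beyond the gene end. ZBP1 (annotated end at chr20:56178902, minus strand) lies downstream of PMEPA1 (annotated end at chr20:56223448, minus strand), whose 10 kb reads also rose. Whether the reads of ZBP1, MSH4 or the other genes here came from transcripts of a gene upstream was not tested.

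C11orf83, also known as UQCC3, an assembly factor of complex III, stood at 11.2, 8.97 and 13.9 CPM in its intron, 93.5, 111 and 93.9 CPM with sh1 and 150, 148 and 157 CPM with sh2 (3.42, SE 0.25, adjusted p = 1.93e-09). Its intron (chr11:62437745-62439587, plus strand) lies downstream of METTL12 (chr11:62434524-62435880, plus strand), the gene that rose at its own 3′ UTR. TRIM59, a ubiquitin ligase, rose from 3.34 to 4.06 CPM to 25.7 to 49.4 CPM (3.41, SE 0.33, adjusted p = 3.17e-07). Their 3′ UTR levels did not pass the test (-0.39 at adjusted p = 0.318 and -0.24 at adjusted p = 0.561).

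TPT1, the translationally controlled tumour protein, had the highest intron level of the named falls, with 1278, 1288 and 1244 CPM in CTRL sh, 788, 410 and 603 CPM with sh1, and 468, 511 and 387 CPM with sh2 (-1.26, SE 0.16, adjusted p = 1.26e-05). IRX3 stood at 447, 372 and 314 CPM in CTRL sh, 249, 132 and 153 CPM with sh1 and 81.7, 125 and 102 CPM with sh2 (-1.42, SE 0.21, adjusted p = 1.12e-04). KCNU1 fell by 1.55 (SE 0.19, adjusted p = 8.80e-06) and SLC16A3 by 1.45 (SE 0.22, adjusted p = 1.81e-04), as it had at the 3′ UTR.

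The falls of MPDU1 (-1.32, SE 0.32, adjusted p = 0.0156), TBC1D8B (-1.27, SE 0.31, adjusted p = 0.0171), CTD-2207O23.12 (-1.26, SE 0.31, adjusted p = 0.0165) and ZNF711 (-1.22, SE 0.29, adjusted p = 0.0130) were less certain. They lost their calls with summed library sizes. They also lost them without CTRL sh 3 (MPDU1, 0.330), CTRL sh 2 or CTRL sh 3 (TBC1D8B up to 0.108, CTD-2207O23.12 up to 0.142) and CTRL sh 1 (ZNF711, 0.116).

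**Figure D5:**
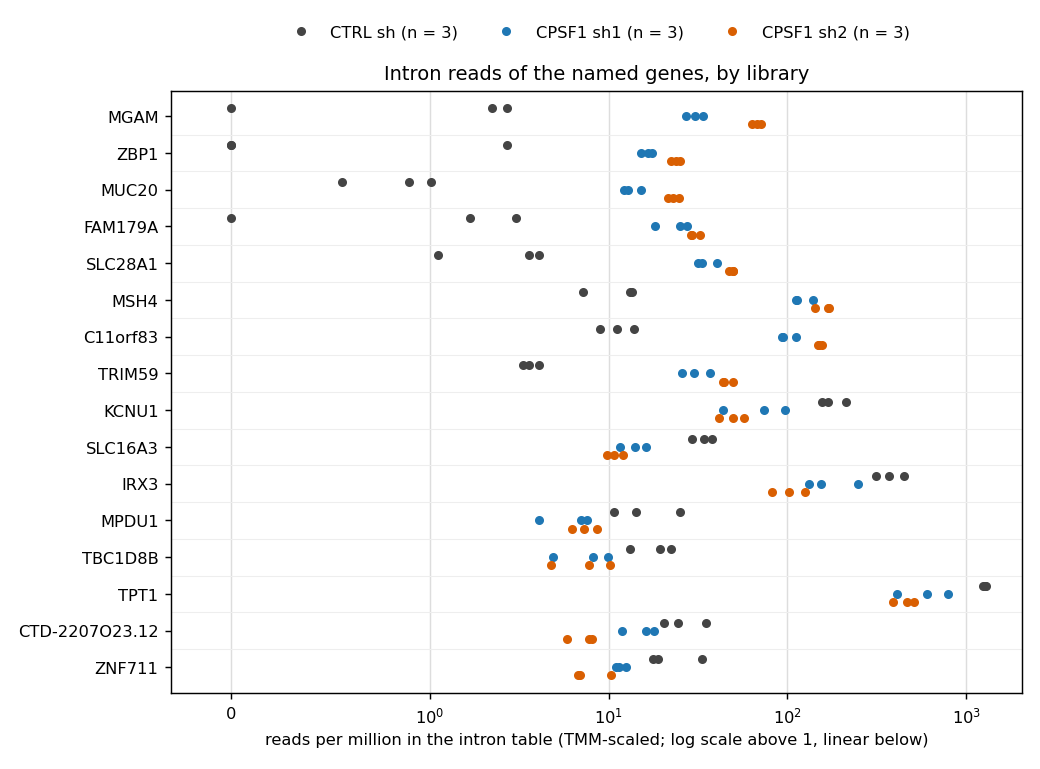
Level in the intron table (CPM, linear below 1 and log above) of the named genes with the largest rises and falls, 1 point per library, coloured by group. The sh2 points of MGAM, at 63.7 to 70.9 CPM, lie above the sh1 points at 27.3 to 33.8 CPM and the controls at 0 to 2.69 CPM, and the TPT1 controls at 1244 to 1288 CPM lie above 387 to 788 CPM.

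In introns 4 of 21 tested cholesterol synthesis genes were called lower (FDFT1, ACAT2, SQLE and HMGCS1), against 1.75% of all genes, with 20 below 0 and a median of -0.40 against -0.02 over all genes. FDFT1 fell from 307 to 379 CPM to 153 to 217 CPM (-0.91, SE 0.12, adjusted p = 3.67e-05). SQLE, squalene epoxidase, fell by 0.76 (SE 0.19, adjusted p = 0.0171), a call lost without CTRL sh 1 or CTRL sh 2 (up to 0.0982). ACAT2 fell by 0.70 (SE 0.14, adjusted p = 0.00385), a call lost without CTRL sh 3 (0.0629). The count of 4 was 2 without CTRL sh 1 or CTRL sh 3 and 1 with summed library sizes.

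Histones had 4 of 11 tested genes higher in introns (36.4%, against 2.62% of all genes). Of 52 cytoplasmic ribosomal protein genes 5 were higher (9.62%) and 4 lower (7.69%, against 1.75% of all genes). The lower count was 7 without CTRL sh 1 and 2 without CTRL sh 2, and with summed library sizes 7 were higher and none was lower. RPS20 rose by 2.98 (SE 0.34, adjusted p = 2.75e-06) and RPL37A from 8.12 to 25.1 CPM to 101 to 170 CPM (2.73, SE 0.26, adjusted p = 1.85e-07). RPL5 fell by 0.90 (SE 0.19, adjusted p = 0.00637), lost with summed sizes and without CTRL sh 2 or CTRL sh 3 (up to 0.0857). Numbered zinc finger genes had 8 of 376 higher and 4 lower (14 and 1 with summed sizes), and the lower count was 8 without CTRL sh 1 and 2 without CTRL sh 2, CTRL sh 3 or CPSF1 sh2 1.

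The ratio of intron to 3′ UTR reads was higher in 33 of 9251 genes (0.357%) and lower in 6 (0.0649%). It rose by 3.78 for C11orf83 (SE 0.35), 3.66 for TRIM59 (SE 0.36), 3.10 for RPS20 (SE 0.36) and 2.88 for RPL37A (SE 0.30), at adjusted p between 5.27e-06 and 6.33e-05. SUDS3, a subunit of the Sin3 corepressor, rose by 2.75 (SE 0.48, adjusted p = 0.00835), lost without CTRL sh 2 or CTRL sh 3 (up to 0.103). The ratio fell for PPIE, a cyclophilin of the spliceosome, by 1.49 (SE 0.24, adjusted p = 0.00422, lost without CTRL sh 2 at 0.0642). Only 3 other genes met the rule for named falls, PROSC, METTL12 and RGPD6, and their calls (adjusted p = 0.0467, 0.0435 and 0.0467) were lost without any 1 library except CTRL sh 1 or CPSF1 sh1 1 (up to 0.333). The counts were 56 and 35 without CTRL sh 1, 56 and 16 without CPSF1 sh1 1, 15 and 1 without CTRL sh 2, and 11 and 2 without CTRL sh 3, and the lower count was 2 or 3 without each of the other libraries.

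In the CDS, 28 of 4940 tested genes were called higher (0.567%) and 22 lower (0.445%). NEB, the muscle filament protein nebulin, stood at 1.62, 5.78 and 0 CPM in CTRL sh, 28.8, 20.3 and 16.9 CPM with sh1, and 52.8, 53.9 and 31.9 CPM with sh2 (3.86, SE 0.62, adjusted p = 0.00165). MYH15, a myosin heavy chain, rose from 3.24 to 5.82 CPM to 28.9 to 55.8 CPM (3.03, SE 0.37, adjusted p = 6.42e-05). HMGB2, a chromatin protein, fell from 7280.2, 7577 and 6288 CPM to 4321, 3865 and 3842 CPM with sh1 and 2811, 3150.0 and 2629 CPM with sh2 (-1.04, SE 0.13, adjusted p = 6.57e-05). SAP30, another Sin3 subunit, fell from 178 to 242 CPM to 66.0 to 104 CPM (-1.31, SE 0.17, adjusted p = 8.36e-05), SLC16A3 by 1.31 (SE 0.23, adjusted p = 0.00435) and BEX1 by 1.03 (SE 0.17, adjusted p = 0.00165). SLC16A3 thus fell in the 3′ UTR, the introns and the CDS, and BEX1 in the 3′ UTR and the CDS.

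AP2A2, an adaptor of endocytosis, had 3 control reads in the CDS against 162 (ratio 15.8, 95% counting interval 5.31 to 77.4, adjusted p = 0.0273). RHOU rose by 2.16 (adjusted p = 0.0486), CDKL3 by 1.86 (adjusted p = 0.0221), and PET117, of complex IV assembly, fell by 1.19 (adjusted p = 0.0351). AP2A2 lost its call without any 1 control or sh2 library (up to 0.139), CDKL3 without CTRL sh 1, CTRL sh 2, CPSF1 sh2 1 or CPSF1 sh2 2 (up to 0.127), RHOU without any 1 library (up to 0.137) and PET117 without any 1 library except CPSF1 sh1 1 (up to 0.231). In the lists, 2 of 10 cleavage and polyadenylation factors were higher (PCF11 and CSTF3), the CSTF3 call being lost without any 1 library except CPSF1 sh1 1 (up to 0.192). BNIP3 was lower by 0.92 (SE 0.19, adjusted p = 0.0164), lost without CTRL sh 2 (0.118). The counts were 10 and 12 without CTRL sh 2, 8 and 9 without CTRL sh 3, 10 and 14 without CPSF1 sh2 1, and 10 and 14 without CPSF1 sh2 2, and the higher count was 15 without CPSF1 sh1 2 and 12 without CPSF1 sh2 3. Summed library sizes gave 2 and 5.

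The response of 22Rv1 was then compared with the mean response of LNCaP and LNCaP95, which carried the same hairpins, in 1 model over all 27 libraries. LNCaP95 was selected at 1 µg/mL puromycin, where the other lines had 2 µg/mL, and was grown without phenol red, so line and these conditions cannot be told apart. The 3′ UTR log2 fold change of CPSF1 itself was -0.73 in 22Rv1, -1.19 in LNCaP and -1.05 in LNCaP95. That difference did not pass the test (0.41, SE 0.23, adjusted p = 0.294). Line and the depth of the knockdown cannot be told apart either. At the 3′ UTR, 457 of 11711 genes changed more positively in 22Rv1 (3.9%) and 422 more negatively (3.6%). In the 10 kb table these were 159 (1.08%) and 263 (1.78%) of 14765. Most of the largest differences lay in genes with almost no reads on 1 side of the comparison, and their values are given in the closing section. GDF15, a stress-induced cytokine, was read in all lines, with a log2 fold change of 1.01 in 22Rv1 (adjusted p = 0.129), -1.02 in LNCaP and -2.39 in LNCaP95, and the difference was 2.73 (SE 0.32, adjusted p = 9.99e-07). SPOCK2, a matrix proteoglycan, gave -0.65 in 22Rv1 (adjusted p = 0.0585), 1.76 in LNCaP and 4.05 in LNCaP95, a difference of -3.53 (SE 0.48, adjusted p = 1.39e-05). The 3′ UTR counts were 271 and 261 without CTRL sh 2 and 217 and 196 without CTRL sh 3 of 22Rv1. In the 10 kb table the more positive count was 77 without CTRL sh 2, and the counts were 66 and 129 without CTRL sh 3.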

How the data were processed

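Poly(A)-ClickSeq reads of all 27 libraries were trimmed, aligned to hg19 with HISAT2 2.1.0 and assigned to regions of protein-coding genes on the sense strand by their 3′-most base with featureCounts of Subread 2.0.3 by the authors, who deposited the raw counts per gene in 4 tables (3′ UTR extended by 300 bases, 10 kb beyond, introns, CDS). Reads from internal poly(A) stretches of genomic sequence cannot be told from true ends in these tables. Every per-sample column was mapped to a label, and 0 were left unmapped. The members, gene lists, named-gene rule and tests were chosen with earlier results of these data known.

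Each table was fitted on its own with edgeR 4.0.16 in R 4.3.3 (TMM factors, quasi-likelihood F-test, 3 CTRL sh against 6 CPSF1 libraries, genes above a mean of 2 CPM over the 9), with Benjamini-Hochberg adjustment over all genes tested. SE was the absolute log2 fold change over the square root of F. Ratios to the 3′ UTR were tested as a region-by-knockdown term with a term per library, and lines with a line-by-knockdown term over 27 libraries. Alternatives were DESeq2 1.42.0, other filters and library sizes, each hairpin alone, a replicate block and leaving out libraries. Ratios of few reads carry exact 95% intervals that cover counting error only, and bounds use 3 reads over the controls. All fits were tested on simulated data.

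Named genes of a table had adjusted p below 0.05, the same sign with each hairpin, a mean of at least 10 CPM and all 6 CPSF1 libraries on the same side of all controls. The 12 highest and 12 lowest log2 fold changes were taken for the 3′ UTR, 12 and 10 for the 10 kb, 8 and 8 for the intron and 5 and 5 for the CDS table. Called genes with at least 10 CPM in both tables gave 8 and 4 for the 10 kb ratio and 5 and 5 for the intron ratio. CPSF1, 8 genes higher in the 10 kb and lower in the 3′ UTR table, 5 and 5 in each line comparison (at least 10 CPM in 22Rv1 or in the other lines) and up to 4 called members of each list with the smallest adjusted p were also named. Some items are not reported here. Genes of the Y chromosome and XIST were left out. Sequences came from the GRCh37 genome.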

Additional observations from a re-analysis of the deposited data

Results flagged for a closer look

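The knockdown response of 22Rv1 differed from the mean response of LNCaP and LNCaP95 in a line-by-knockdown test (edgeR's quasi-likelihood test, Benjamini-Hochberg adjusted) for each gene below, and the 5 largest differences in each direction and table are given as log2 change in 22Rv1 minus the mean change in the other lines.

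In the 3′ UTR table the more positive differences were RAB25 (3.80), STC1 (3.35), ZNF35 (3.35), GDF15 (2.73) and HES7 (2.68). RAB25, STC1 and ZNF35 had mean levels of 0.956, 0.939 and 1.11 CPM in 22Rv1 against 98.9, 21.6 and 18.5 CPM in the other lines, and HES7 had 84.2 against 0.562 CPM, so each rests on very few reads on 1 side. RAB25 and ZNF35 lost their calls without CTRL sh 3 of 22Rv1 (adjusted p = 0.0778 and 0.183). The more negative differences were POU3F2 (-5.21), CILP2 (-4.38), MOB3B (-3.99), HOXA7 (-3.55) and SPOCK2 (-3.53). The mean levels in the other lines were 0.418 CPM for POU3F2, 2.50 CPM for CILP2, 0.199 CPM for MOB3B, 1.47 CPM for HOXA7 and 4.60 CPM for SPOCK2. The MOB3B call was lost without CTRL sh 2 or CTRL sh 3 of 22Rv1 and with a replicate block (adjusted p up to 0.0672 when a library was left out). In 22Rv1 itself HOXA7 fell from 42.2 to 45.7 CPM to 15.0 to 36.9 CPM (-1.06, SE 0.23, adjusted p = 0.0252).

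In the 10 kb table the more positive differences were SCG3 (9.48), FLRT3 (8.10), IFRD2 (6.09), SLC28A2 (6.03) and BMPR1A (6.01), all with 0 reads in the 3 controls of 22Rv1. FLRT3, SLC28A2 and BMPR1A lost their calls without CTRL sh 2 or CTRL sh 3 (adjusted p up to 0.0814, 0.123 and 0.107), and IFRD2 without CTRL sh 3 (0.0624). The more negative differences were GPR157 (-7.10), ARHGAP28 (-5.71), DHX8 (-5.53), PSMA2 (-5.49) and ANK3 (-5.15). In 22Rv1, GPR157 had 2 control reads, ARHGAP28 had 7 and ANK3 had 6, each in a single library, and their calls were lost without that library (adjusted p = 1.00, 0.980 and 0.904, for CTRL sh 2, CTRL sh 3 and CTRL sh 1). PSMA2 lost its call without CTRL sh 3 (0.206). DHX8 changed by -1.56 in 22Rv1 (adjusted p = 0.246), 5.29 in LNCaP and 2.41 in LNCaP95.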

How the results depend on the processing

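Counts of calls depended on the design. No named gene that was called changed sign under any alternative run. The rule for the named genes of a table required the same sign with each hairpin and no overlap between groups. Their steady signs were therefore largely set by the choice of genes and do not measure robustness. Of the settings tried for named genes 128 ended a call and 627 did not in the 3′ UTR table, 161 and 2167 in the 10 kb, 110 and 606 in the intron and 57 and 168 in the CDS table. The causes of the moves below were not tested. In each pair the higher count stands before the lower.

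DESeq2 called 179 and 208 genes in the 3′ UTR table, keeping all of the main calls, and 46 lower in the CDS table. Requiring over 2 CPM in every library gave 50 higher in the 3′ UTR table, 580 and 602 in the 10 kb table, 158 lower 10 kb ratios and 14 lower intron ratios. Without TMM factors there were 58 lower in the 3′ UTR table, 1779 and 142 in the 10 kb table, 55 lower in the intron table, and 1096 and 46 for the 10 kb ratio. With no filter beyond 1 read 49 were higher in the CDS table. A model with 3 groups gave 164 lower in the 3′ UTR table. With sh2 alone 139 were lower there. With sh1 alone the counts were 2 and 1 in the 3′ UTR, 474 and 145 in the 10 kb, 105 and 30 in the intron and 3 and 3 in the CDS table, 222 and 11 for the 10 kb ratio and 8 and 1 for the intron ratio.

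Library sizes summed over the 4 tables, chosen after seeing the data, gave 2700 and 57 in the 10 kb table, 20 lower in the intron table, 2 and 5 in the CDS table, 2549 and 13 for the 10 kb ratio and 57 and 1 for the intron ratio. Leaving out CTRL sh 1 and CPSF1 sh1 1 together, also chosen after seeing the data, gave 358 and 418 in the 3′ UTR table, 608 lower in the 10 kb, 407 lower in the intron and 38 lower in the CDS table, 196 lower 10 kb ratios, and 86 and 55 for the intron ratio.

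Leaving out 1 library at a time gave 27 to 167 higher and 25 to 212 lower in the 3′ UTR table, 598 to 1123 and 201 to 524 in the 10 kb, 170 to 390 and 92 to 330 in the intron and 8 to 28 and 9 to 28 in the CDS table. It gave 296 to 746 and 27 to 156 for the 10 kb ratio, 11 to 56 and 1 to 35 for the intron ratio, 217 to 568 and 196 to 516 for the line difference in the 3′ UTR table and 66 to 153 and 129 to 292 in the 10 kb table. Most lowest counts were without CTRL sh 3, the deepest control, and most highest ones without CTRL sh 1 or CPSF1 sh1 1.

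Replicate numbers were not taken to pair the libraries. Deviations of same-numbered libraries correlated in the 3′ UTR table at 0.392, 0.253 and 0.118 between CTRL sh and CPSF1 sh1, but at -0.145 to 0.0188 between either and CPSF1 sh2, and at -0.023 to 0.0803 in the other tables. With a replicate block the counts were 65 and 75 in the 3′ UTR, 959 and 317 in the 10 kb, 303 and 185 in the intron and 24 and 22 in the CDS table, 618 and 66 for the 10 kb ratio, 31 and 6 for the intron ratio, and 387 and 309 and 135 and 228 for the line differences. It ended the 3′ UTR calls of BNIP3 (adjusted p = 0.0522), CCNG1 (0.0518), RPS23 (0.0512) and NPC2 (0.0774), and elsewhere those of PGK1 and SUDS3 (10 kb), KIF2C and SCD (introns), RHOU (CDS), METTL12 and RGPD6 (intron ratio) and MOB3B (line difference), at adjusted p of 0.0517 to 0.0772. The depth of the 10 kb regions limits genes with few control reads to bounds or wide intervals.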
